A study of Homo sapiens with 12 samples.

Results

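The bone morphogenetic protein (BMP) signalling and ID genes are a group of 10 genes taken by symbol from a table of raw read counts: the ligands BMP2, BMP4 and BMP6, the secreted antagonists NOG and GREM1, the membrane pseudoreceptor BAMBI, and the transcription regulators ID1, ID2, ID3 and ID4. They are 10 of 40591 named genes in the table. The filter on low counts kept 9 of the 10 among 15179 genes tested, and GREM1 did not pass it. Poly(A) RNA had been sequenced from ARPE-19, an established human cell line labelled as retinal pigment epithelium (RPE), in 4 groups of 3 libraries each. For WT no open reading frame (ORF) is named. GFP expressed the green fluorescent protein and was taken as the ORF control, GSTA4 expressed glutathione S-transferase alpha 4, and OSK was read as the pluripotency factors POU5F1 (OCT4), SOX2 and KLF4. The lines were stable and were collected once the ORF had been on for 4 days. Nothing in the labels gives the promoter of the ORFs, says whether a line is 1 clone, or tells if the libraries in each group are from separate cultures. The p-values therefore measure the spread between these libraries, which may be technical, and an ORF cannot be told apart from other differences between the lines.

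BMPs are secreted dimers that bring together type I and type II serine/threonine kinase receptors. The receptors phosphorylate SMAD1, SMAD5 and SMAD9, which enter the nucleus with SMAD4 and switch on targets, among them the ID genes and the feedback inhibitors SMAD6, SMAD7 and BAMBI. ID proteins have a helix-loop-helix but no DNA-binding region, and they hold E proteins such as TCF3 and TCF4 away from DNA. In the eye, BMP ligands are made by the RPE and the choroid and are known for roles in retinal patterning and in eye growth.

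The promoters of the ID genes, BAMBI and BMP6 are shown because these genes moved differently from each other across the lines. The ID genes and BAMBI are also known SMAD targets. The windows were set by distance from the start and not by where SMADs are known to act. Each sequence holds the 250 bases before the gene's start in RefSeq (GRCh38.p14), read 5′ to 3′ on the gene's strand. Capitals mark GGCGCC, a GC-rich site that BMP SMADs can bind, and GTCT or its reverse complement AGAC, the short SMAD binding element. These 2 motifs cannot overlap. RefSeq sequences matched 8 of the 10 members.
ID1, chr20:31605039-31605288, plus strand: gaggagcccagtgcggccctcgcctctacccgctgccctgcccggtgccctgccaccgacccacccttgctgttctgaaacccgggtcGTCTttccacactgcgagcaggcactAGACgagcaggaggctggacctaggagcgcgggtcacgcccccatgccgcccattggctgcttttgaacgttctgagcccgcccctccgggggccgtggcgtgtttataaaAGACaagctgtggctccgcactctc
ID2, chr2:8681806-8682055, plus strand: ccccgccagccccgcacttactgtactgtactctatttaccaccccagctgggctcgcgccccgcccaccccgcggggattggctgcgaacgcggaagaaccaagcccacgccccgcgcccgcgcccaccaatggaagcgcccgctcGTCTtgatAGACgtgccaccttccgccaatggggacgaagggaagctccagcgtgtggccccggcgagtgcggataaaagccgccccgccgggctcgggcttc
ID3, chr1:23559502-23559751, minus strand: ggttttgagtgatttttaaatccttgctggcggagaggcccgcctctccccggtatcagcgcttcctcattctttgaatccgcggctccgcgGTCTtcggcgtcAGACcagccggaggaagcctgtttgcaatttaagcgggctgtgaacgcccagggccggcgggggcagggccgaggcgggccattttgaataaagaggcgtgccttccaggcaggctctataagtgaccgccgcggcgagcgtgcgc
ID4, chr6:19837120-19837369, plus strand: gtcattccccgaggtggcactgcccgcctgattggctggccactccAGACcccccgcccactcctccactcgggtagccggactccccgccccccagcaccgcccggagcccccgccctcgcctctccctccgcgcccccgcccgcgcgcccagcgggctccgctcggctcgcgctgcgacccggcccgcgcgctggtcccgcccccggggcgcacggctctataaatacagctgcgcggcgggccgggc
BAMBI, chr10:28677271-28677520, plus strand: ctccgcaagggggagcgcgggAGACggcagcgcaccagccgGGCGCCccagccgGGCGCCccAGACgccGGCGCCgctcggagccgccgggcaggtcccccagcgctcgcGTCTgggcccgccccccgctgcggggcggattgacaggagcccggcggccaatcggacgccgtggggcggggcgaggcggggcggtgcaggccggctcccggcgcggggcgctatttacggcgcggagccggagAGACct
BMP6, chr6:7725849-7726098, plus strand: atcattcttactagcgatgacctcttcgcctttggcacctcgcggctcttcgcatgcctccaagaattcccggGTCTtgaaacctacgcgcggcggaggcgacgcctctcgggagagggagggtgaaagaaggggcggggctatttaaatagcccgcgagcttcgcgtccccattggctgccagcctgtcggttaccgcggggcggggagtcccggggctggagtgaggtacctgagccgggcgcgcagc

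Both strands were searched. GGCGCC was found 3 times in the BAMBI window and 0 times in the windows of ID1, ID2, ID3, ID4 and BMP6, and 16.4% of all 34788 windows of this length held it. Among member windows not shown, a GREM1 window held it 2 times and a BMP4 window 1 time, and the others 0 times. GTCT or AGAC was found 3 times in ID1, 2 times in ID2, 2 times in ID3, 1 time in ID4, 4 times in BAMBI and 1 time in BMP6, beside 77.5% of all windows with at least 1. GGCGCC followed after 5 bases by GTCT, a spacing known from BMP enhancers, was found in none of these windows and in 0.0776% of all. CACCC, a core that KLF factors can bind, was found 1 time in ID1, 2 times in ID2, 1 time in BMP6 and 0 times in ID3, ID4 and BAMBI, where 54.7% of all windows held it. TATAAA was found in ID1 and in ID4, and in 10.8% of all windows. ATGCAAAT, the octamer that POU factors bind, and CATTGT, a core that SOX factors can bind, were found in none of the 6 windows shown, beside 1.62% and 9.29% of all. The windows were rich in G and C, from 62% in ID3 to 81.2% in BAMBI, where the median over all windows was 58%. These matches describe the letters in the windows, which say nothing of whether a factor is bound there. Bases outside the windows were not searched, so the counts of 0 hold for these windows only.

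Levels are given as CPM, reads scaled to the same total in each library with scaling factors from the trimmed mean of M-values (TMM). Libraries held from 12630675 to 17045454 reads. A floor of 3 reads, the upper limit left by a count of 0, came to 0.177 to 0.239 CPM without the TMM factors. This floor covers counting error only. WT replicate 1 stood apart from the other WT libraries, with a chi-square per gene of 14.98 and 17.38 against them, where other pairs within a group had 2.54 to 7.12. GFP replicate 1 had reads on 27349 named genes and the other libraries on 19488 to 22073. GSTA4 had 415.3 CPM ± 17.6 (SD, n = 3) in the GSTA4 group and 8.78 in GFP, and POU5F1, SOX2 and KLF4 had 778.1, 627.3 and 926.6 CPM in OSK, so the ORFs were in the groups that carry them. Of 14 RPE markers 11 passed the filter, while RPE65, TTR and DCT stayed under 1 CPM in every library. The keratin KRT8 was the largest single part of the sum of the RPE markers in each group. The sum was 2565 to 2784 CPM in WT, 2316 to 2655 in GFP, 1746 to 1818 in GSTA4 and 1506 to 1565 in OSK. Single RPE markers did not all follow that sum. Over all tested genes, 22.2% were past the threshold used below in GFP against WT and 29.2% in GSTA4 against GFP. The shares were 45.9% in OSK against GFP and 47.8% in OSK against GSTA4. In GFP against WT 7 of the 11 were higher (TYR, TYRP1, PMEL, RLBP1, BEST1, SERPINF1 and MITF) and 2 were lower (KRT8 and KRT18), with a list median of 0.55. Against GFP, 1 was higher and 8 were lower in GSTA4, and 0 were higher and 11 lower in OSK. In OSK against GSTA4 3 were higher (TYR, TYRP1 and OTX2) and 6 lower, and TYR, a pigment enzyme, averaged 33.7 CPM in OSK and 11.9 in GSTA4, beside 65.9 in GFP and 21.2 in WT. The sum of 8 fibroblast markers, mostly PDGFRB, was 786 to 800.2 CPM in WT and 730.2 to 799.6 in GFP. It was 552 to 587 in GSTA4 and 351 to 409 in OSK, with COL1A2, COL3A1 and PDGFRA under 1 CPM throughout. Of the 4 that passed the filter, ACTA2 was higher and FAP, COL1A1 and PDGFRB were lower in GSTA4 against GFP. In GFP against WT ACTA2 was higher and FAP and COL1A1 lower, and in OSK against GFP all 4 were lower. In OSK against GSTA4 COL1A1 was higher, and ACTA2 and PDGFRB were lower. The sum of 6 endothelial markers, mostly KDR, was 70.9 to 94.4, 58.6 to 73.5, 36.4 to 38.7 and 23.7 to 26.6 CPM in the same order, with PECAM1 and CDH5 under 1 CPM. None of 6 leukocyte markers and 1 of 7 pluripotent stem cell markers, DNMT3B, passed the filter. The part of these markers in the results that follow was not tested.

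In GSTA4 against GFP, 6 of the 9 tested members were lower and 0 were higher (edgeR quasi-likelihood test, Benjamini-Hochberg adjusted p under 0.05), where 29.2% of all tested genes were called (14.7% higher, 14.6% lower). The 6 were BMP6, ID3, BMP2, ID1, ID4 and BAMBI, and the median log2 fold change of the 9 was -0.37 beside 0.01 over all genes. The share of reads on mitochondrially encoded mRNAs was also highest in GSTA4, at 7.55% to 7.82%, beside 5.99% to 6.06% in WT, 6.05% to 6.54% in GFP and 6.81% to 6.89% in OSK, and its part in the result was not tested. In OSK against GFP, ID1, ID4 and NOG were higher and ID3, BAMBI, ID2 and BMP2 were lower, 7 of 9 where 45.9% of all genes were called (23.1% higher, 22.8% lower), with a median of -0.16 beside -0.02. In GFP against WT, ID3 was higher and ID1, BMP2, BAMBI and BMP4 were lower, 5 of 9 where 22.2% were called (11.0% higher, 11.2% lower), with a median of -0.22 beside 0.01. In OSK against GSTA4, ID1, BMP6, ID4 and NOG were higher and BAMBI, ID2 and BMP4 were lower, 7 of 9 where 47.8% were called (24.1% higher, 23.8% lower), with a median of 0.00464 beside -0.01. Against WT, GSTA4 had 0 higher and 7 lower members with 38.6% of all genes called (19.7% higher, 19.0% lower), and OSK had 2 higher and 6 lower with 45.4% called (22.7% higher, 22.7% lower). All 9 were past the threshold in the test for any difference among the 4 groups, as were 66.9% of all genes. Contrasts against GFP share the GFP libraries and so are not independent of each other. RNA came from whole cultures, in which fewer cells of a kind and less RNA per cell cannot be told apart.

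**Figure D1:**
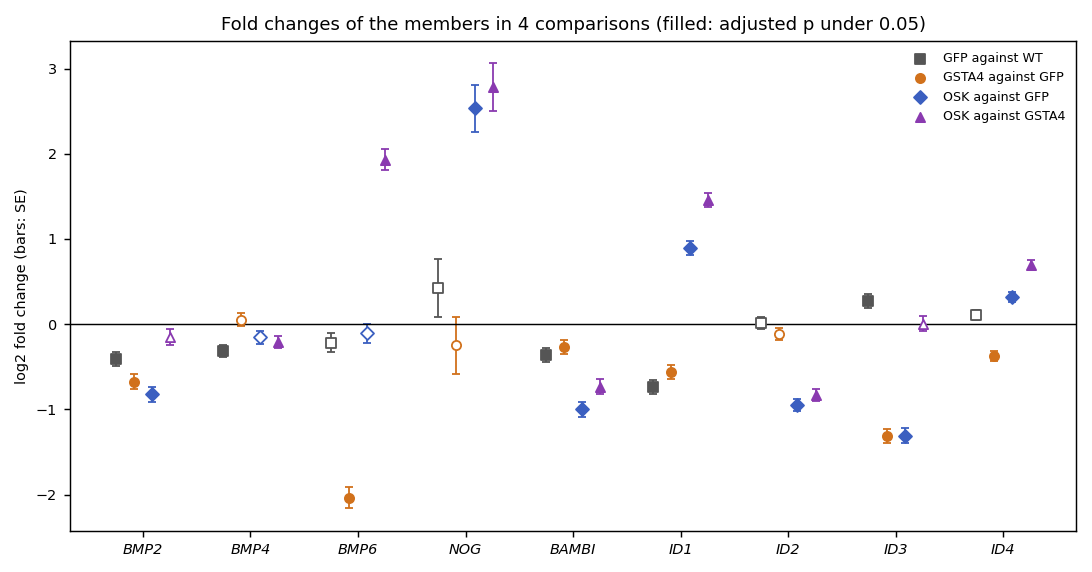
Log2 fold change (y axis) of the 9 tested members (x axis). The contrasts are GFP against WT, GSTA4 against GFP, OSK against GFP and OSK against GSTA4. Points are edgeR estimates, bars are standard errors, and filled points had an adjusted p under 0.05. NOG in OSK against GSTA4 (2.78) and against GFP (2.53) and BMP6 in GSTA4 against GFP (-2.04) lie farthest from 0, and ID1 and ID4 lie on opposite sides of 0 in the GSTA4 and OSK contrasts with GFP.

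BMP6, a ligand best known for its part in iron balance and bone, lies on chromosome 6 (7726099 to 7881728, plus strand, RefSeq GRCh38.p14). It had 72.4, 102 and 97.5 CPM in WT, 68.5, 74.5 and 89.8 in GFP, 18.7, 20.3 and 17.8 in GSTA4 and 79.7, 71.7 and 65.1 in OSK. The 3 GSTA4 libraries lay below all 9 others, and the other groups overlapped. The log2 fold change in GSTA4 against GFP was -2.04 (SE 0.126, adjusted p 9.63e-11), or 4.11-fold lower. OSK differed from GSTA4 by 1.93 (SE 0.126, adjusted p 5.76e-11), and its difference from GFP was -0.11 (adjusted p 0.467), with a 95% interval of -0.34 to 0.13. The value in GFP against WT was -0.22 (adjusted p 0.168). Without WT replicate 1 it was -0.36 (adjusted p 0.00508), and over all alternatives the adjusted p ran from 0.00508 to 0.486.

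BMP2, a ligand that drives bone formation and is also found in the RPE, lies on chromosome 20 (6767686 to 6780246, plus strand). It had 62.6, 65.3 and 59.6 CPM in WT, 51.1, 44.4 and 45.4 in GFP, 29.2, 29.5 and 29.4 in GSTA4 and 28.9, 22.9 and 27.9 in OSK. WT was highest and GFP came next with no overlap, and the GSTA4 and OSK libraries all lay below the GFP libraries. The log2 fold change was -0.68 in GSTA4 against GFP (SE 0.0884, adjusted p 5.99e-06) and -0.82 in OSK against GFP (SE 0.0891, adjusted p 1.78e-07). It was -0.41 in GFP against WT (SE 0.0843, adjusted p 0.00158). The OSK libraries lay just under the GSTA4 libraries, but the difference of -0.15 missed the threshold (adjusted p 0.194, 95% interval -0.34 to 0.04).

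BMP4, a ligand that patterns the dorsal eye, lies on chromosome 14 (53949736 to 53956891, minus strand) and had 239, 194 and 189 CPM in WT, 158, 173 and 168 in GFP, 176, 171 and 170.2 in GSTA4 and 147, 147 and 155 in OSK. WT replicate 1 was the highest library, and every other library lay between 147 and 194 CPM. GSTA4 and GFP overlapped, with a log2 fold change of 0.05 (adjusted p 0.644) and a 95% interval of -0.10 to 0.21. GFP was lower than WT, at -0.32 on the log2 scale (SE 0.0731, adjusted p 0.00398), and without WT replicate 1 the value was -0.20 (adjusted p 0.0191, range over all alternatives 9.22e-05 to 0.0307). The 3 OSK libraries lay below the 3 GFP libraries, with a log2 fold change of -0.16, an adjusted p of 0.0919 that missed the threshold, and a range over alternatives of 0.0180 to 0.247. OSK was lower than GSTA4 (log2 fold change -0.21, adjusted p 0.0249). This difference missed the threshold without GSTA4 replicate 1, GSTA4 replicate 2, OSK replicate 1 or OSK replicate 2, with adjusted p-values of 0.0744, 0.0528, 0.0860 and 0.0782 (range over all alternatives 0.00119 to 0.0860). Per kilobase of exon (GENCODE 29), BMP4 was the most abundant of the 3 ligands in each group, at 54.0 CPM per kb in GFP, where BMP6 had 27.9 and BMP2 had 13.0. In GSTA4 the order of the lower pair was reversed, with 8.16 CPM per kb for BMP2 and 6.81 for BMP6 and no overlap.

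**Figure D2:**
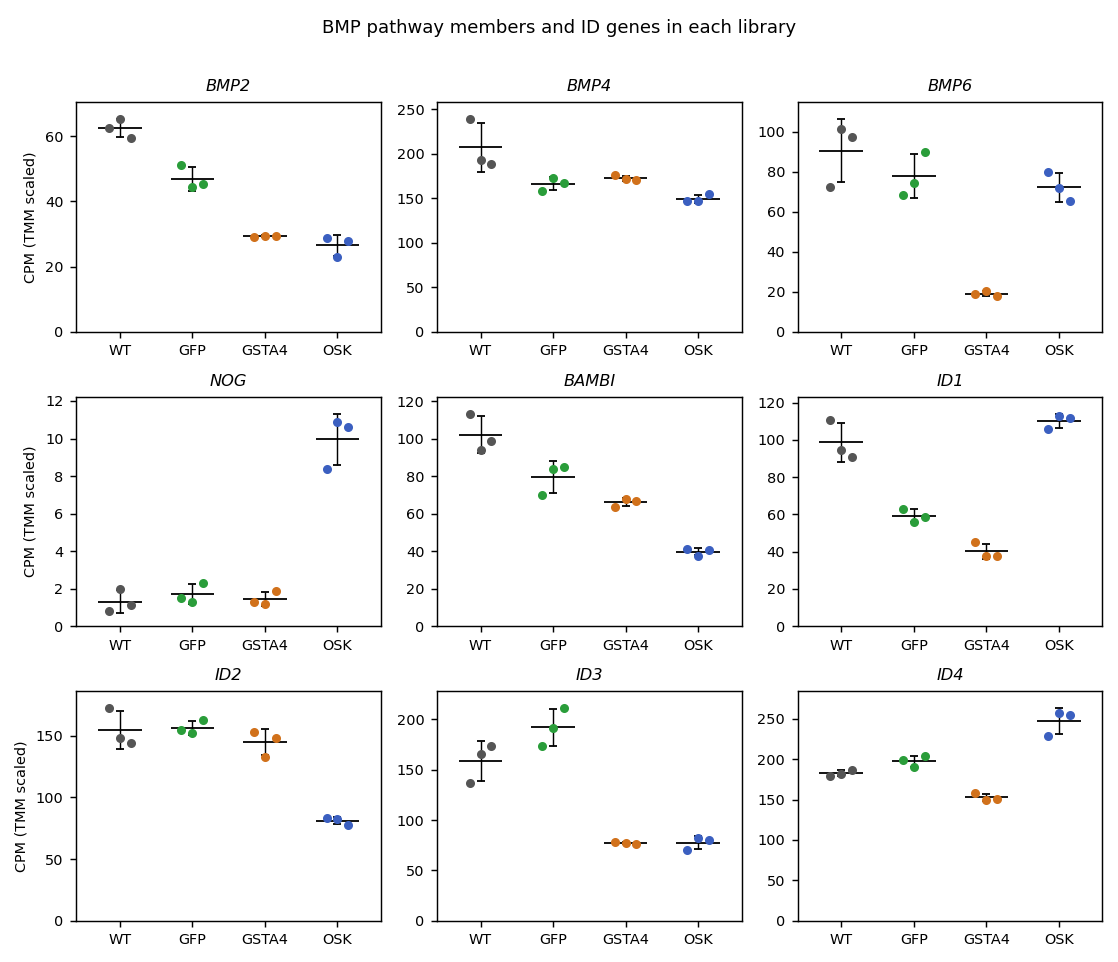
CPM (y axis, from 0) of 9 members in each of the 12 libraries, by group (x axis), 1 panel per gene. Points are libraries, lines are group means and bars are SD (n = 3). The GSTA4 libraries are the lowest for BMP6, the OSK libraries are the highest for NOG, and for ID3 both lie between 70.1 and 82.1 CPM.

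NOG encodes noggin, which binds BMP2 and BMP4 outside the cell and keeps them from their receptors, and it lies on chromosome 17 (56593699 to 56595611, plus strand) as a single exon. It had 0.808, 1.98 and 1.12 CPM in WT, 1.52, 1.29 and 2.31 in GFP, 1.27, 1.20 and 1.86 in GSTA4 and 8.39, 10.9 and 10.6 in OSK. The 3 OSK libraries were above all 9 others, and the other groups overlapped at levels of 59 reads in total in WT, 72 in GFP and 63 in GSTA4. OSK was 5.79-fold above GFP (log2 fold change 2.53, SE 0.278, adjusted p 2.20e-07), with 441 reads in OSK. For GSTA4 against GFP the log2 fold change was -0.25 (adjusted p 0.629), and its 95% interval of -0.95 to 0.45 is wide at this depth. Per kilobase of exon, NOG stayed below the 3 ligands in every group and reached 5.26 CPM per kb in OSK, where BMP2 had 7.37.

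GREM1 encodes gremlin 1, another secreted BMP antagonist, and lies on chromosome 15 (32718004 to 32745106, plus strand). It had 4, 1 and 0 reads in WT, 2, 2 and 6 in GFP, 1, 0 and 0 in GSTA4 and 0 in all 3 OSK libraries. Most libraries were at or under the floor of 3 reads, and no fold is given. GENCODE 29 places a noncoding gene on the opposite strand over 188 bp of the GREM1 exons.

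BAMBI, a receptor-like protein without a kinase that dampens BMP and TGF-beta signals, lies on chromosome 10 (28677521 to 28682932, plus strand). It had 113, 94.2 and 98.8 CPM in WT, 69.8, 84.0 and 85.0 in GFP, 63.7, 68.1 and 66.9 in GSTA4 and 41.2, 37.6 and 40.7 in OSK. Its level stepped down from WT through GFP and GSTA4 to OSK, with no overlap between neighbouring groups. OSK was 2.00-fold below GFP (log2 fold change -1.0, SE 0.0852, adjusted p 5.32e-09). OSK against GSTA4 gave -0.73 on the log2 scale (SE 0.0856, adjusted p 4.11e-07), and GFP against WT gave -0.36 (SE 0.0807, adjusted p 0.00325). The smallest step was GSTA4 against GFP, at -0.27 (SE 0.0824, adjusted p 0.0187). That call was lost without GFP replicate 2, GFP replicate 3 or GSTA4 replicate 1, with adjusted p-values of 0.0829, 0.0867 and 0.0749 (range over all alternatives 0.00308 to 0.0867).

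The 4 ID genes did not move as a block. ID1 and ID4 were lower in GSTA4 and higher in OSK than in GFP, ID2 was lower in OSK, and ID3 was lower in both. ID1, a widely used transcriptional readout of BMP signalling, lies on chromosome 20 (31605289 to 31606510, plus strand) and had 111, 94.7 and 90.8 CPM in WT, 63.0, 56.1 and 58.6 in GFP, 45.0, 37.8 and 37.6 in GSTA4 and 106, 113 and 112 in OSK. GSTA4 was lowest and GFP next, while OSK overlapped WT. The log2 fold change against GFP was -0.56 in GSTA4 (SE 0.0862, adjusted p 4.44e-05) and 0.90 in OSK (SE 0.0821, adjusted p 1.61e-08). OSK against GSTA4 gave 1.46 (SE 0.0844, adjusted p 9.30e-12). GFP was itself below WT, at -0.74 (SE 0.0822, adjusted p 3.15e-06). OSK against WT was 0.16 (adjusted p 0.112). Without WT replicate 1, the highest WT library, OSK against WT was 0.25 (adjusted p 0.00721, range over all alternatives 0.00721 to 0.423).

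ID2, which holds back differentiation in many lineages, lies on chromosome 2 (8682056 to 8684461, plus strand) and had 172, 148 and 144 CPM in WT, 155, 152 and 163 in GFP, 153, 133 and 148 in GSTA4 and 83.0, 82.2 and 77.6 in OSK. The OSK libraries were all below the 9 others, which overlapped. OSK was 1.93-fold below GFP (log2 fold change -0.95, SE 0.0722, adjusted p 9.62e-10). The difference of GSTA4 from GFP was -0.11 (adjusted p 0.243, 95% interval -0.26 to 0.03), and that of GFP from WT was 0.02 (adjusted p 0.903). In GENCODE 29 the antisense gene ID2-AS1 shares 38 bp of exon with ID2 on the opposite strand. The strand setting of the counting is not given in the sources used here, so reads of the 2 genes cannot be told apart over that stretch. ID2-AS1 had 6.11 CPM in GFP and 4.49 in OSK, both small beside ID2.

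ID3, a close relative of ID1 that many tissues express with it, lies on chromosome 1 (23557926 to 23559501, minus strand) and had 137, 166 and 174 CPM in WT, 174, 191 and 211 in GFP, 78.2, 77.2 and 76.6 in GSTA4 and 70.1, 82.1 and 80.5 in OSK. The GSTA4 and OSK libraries lay between 70.1 and 82.1 CPM and all below the 6 libraries of GFP and WT. Against GFP, ID3 was 2.48-fold lower in GSTA4 (log2 fold change -1.31, SE 0.0865, adjusted p 2.77e-10) and 2.48-fold lower in OSK (log2 fold change -1.31, SE 0.0864, adjusted p 1.10e-10). OSK and GSTA4 differed by 0.00464 on the log2 scale (adjusted p 0.973), with a 95% interval of -0.18 to 0.19. GFP against WT was 0.27 (SE 0.0833, adjusted p 0.0229) with groups that overlapped, and the call was lost without WT replicate 1, GFP replicate 2 or GFP replicate 3 (adjusted p-values 0.0954, 0.0595 and 0.124) and with only the 6 libraries compared (0.0662), over a range of 0.00301 to 0.124.

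ID4, the most divergent ID protein, known for its part in neural and mammary cells, lies on chromosome 6 (19837370 to 19842197, plus strand). It had 179.7, 182 and 186 CPM in WT, 199, 190.1 and 204 in GFP, 158, 149 and 151 in GSTA4 and 228, 258 and 255 in OSK. No GSTA4 library reached the other groups and no OSK library came down to them. The log2 fold change against GFP was -0.37 in GSTA4 (SE 0.0591, adjusted p 6.42e-05) and 0.32 in OSK (SE 0.0584, adjusted p 0.000131), and OSK against GSTA4 was 0.69 (SE 0.0589, adjusted p 3.80e-09). GFP against WT was 0.11 (adjusted p 0.180).

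Per kilobase of exon the order of the ID genes changed with the line. In GFP it ran from ID3 at 107 ± 10.4 CPM per kb (SD, n = 3) through ID4 at 84.3 ± 2.96 and ID2 at 70.9 ± 2.55 to ID1 at 48.1 ± 2.83, and no neighbours in that order overlapped. In GSTA4, ID2 (65.5 ± 4.77) and ID4 (65.1 ± 1.86) led and overlapped each other, followed by ID3 (43.0 ± 0.461) and ID1 (32.5 ± 3.42). In OSK, ID4 (105 ± 6.92) came first and ID1 (89.4 ± 3.17) second, with ID3 (43.2 ± 3.61) and ID2 (36.7 ± 1.31) at the bottom, and no neighbours overlapped. In WT the 4 ran from 88.5 for ID3 to 70.2 for ID2, with ID1 at 80.1 and ID4 at 77.9, and every pair overlapped.

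Over the 12 libraries, which fall into 4 groups, Pearson's r of log2(CPM + 0.5) was 0.77 between ID1 and ID4, -0.51 between ID1 and ID2, -0.74 between ID2 and ID4 and 0.08 between ID1 and ID3. ID2 followed BAMBI (r = 0.91) and ran opposite to NOG (r = -0.94), and BMP2 went with BAMBI (0.87) and with ID3 (0.85). These values describe the 4 group levels more than 12 independent points. Among 13694 genes, those most like ID1 were C2CD2L (0.989), CPOX and LRP10, and those most like ID2 were DVL3 (0.993), C2CD3 and APPL2. For ID3 they were SAMD11 (0.992), MEGF6 and PDXK, and for ID4 they included HPS5 (0.982) and TM7SF2. BMP6 was most like AMTN (0.988), ITGA11 (0.987) and PMEPA1 (0.983). BMP2 was most like RGS9 (0.985), APBB2 and SBK1, and BMP4 was most like EPAS1 (0.954), DRAM1 and THOC6. BAMBI was most like PCGF2 (0.979), ATP6V1B2 and RASSF8, and NOG was most like CACNA2D1 (0.984), MN1 and ATP2A2.

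The rest of the pathway was taken by role from lists that include the members. Beside the counts below, 29.2% of all tested genes were called in GSTA4 against GFP (14.7% higher, 14.6% lower). The shares were 45.9% in OSK against GFP (23.1% higher, 22.8% lower) and 22.2% in GFP against WT (11.0% higher, 11.2% lower). Of 14 ligands 6 passed the filter. GSTA4 against GFP had 3 lower and 0 higher, with BMP8B at -0.45 (SE 0.139, adjusted p 0.0182) beside BMP6 and BMP2, and a list median of -0.26 beside 0.01 over all genes. The call of BMP8B was lost without GFP replicate 1 or 2 or GSTA4 replicate 1 or 3 (range of adjusted p over all alternatives 0.0105 to 0.0904). In OSK against GFP, BMP2 was the 1 ligand called, with a list median of -0.13, and the count was 2 without WT replicate 1 and with only the 6 libraries compared, and 3 with library size alone. BMP2 and BMP4 were lower and 0 ligands were higher in GFP against WT (median -0.24). Of 18 secreted BMP-binding proteins 10 were tested. In OSK against GFP 7 were higher and 2 lower, with a list median of 0.49 beside -0.02 over all genes. Follistatin (FST), which traps activins and some BMPs, had 0.746, 1.10 and 1.24 CPM in WT, 1.06, 0.501 and 0.746 in GFP, 0.508, 1.05 and 1.10 in GSTA4 and 8.39, 8.79 and 11.5 in OSK, with the OSK libraries above all others (log2 fold change 3.62, SE 0.311, adjusted p 6.14e-09). Its relative FSTL3 went down, from 722 CPM ± 51.8 to 315 ± 8.21 (-1.20, SE 0.0751, adjusted p 4.97e-11). GSTA4 against GFP had 2 higher and 1 lower (list median 0.03), with CHRDL1, a chordin-like antagonist, at 1.28 (SE 0.115, adjusted p 3.06e-08), FSTL1 at 0.32 and FSTL3 at -0.36. GFP against WT had 1 higher and 2 lower (list median -0.19), with NBL1 at -0.62 (adjusted p 1.22e-05) and FSTL1 at 0.24 (adjusted p 0.0138), a call that was lost without GFP replicate 2 (range over all alternatives 0.00140 to 0.0513).

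**Figure D3:**
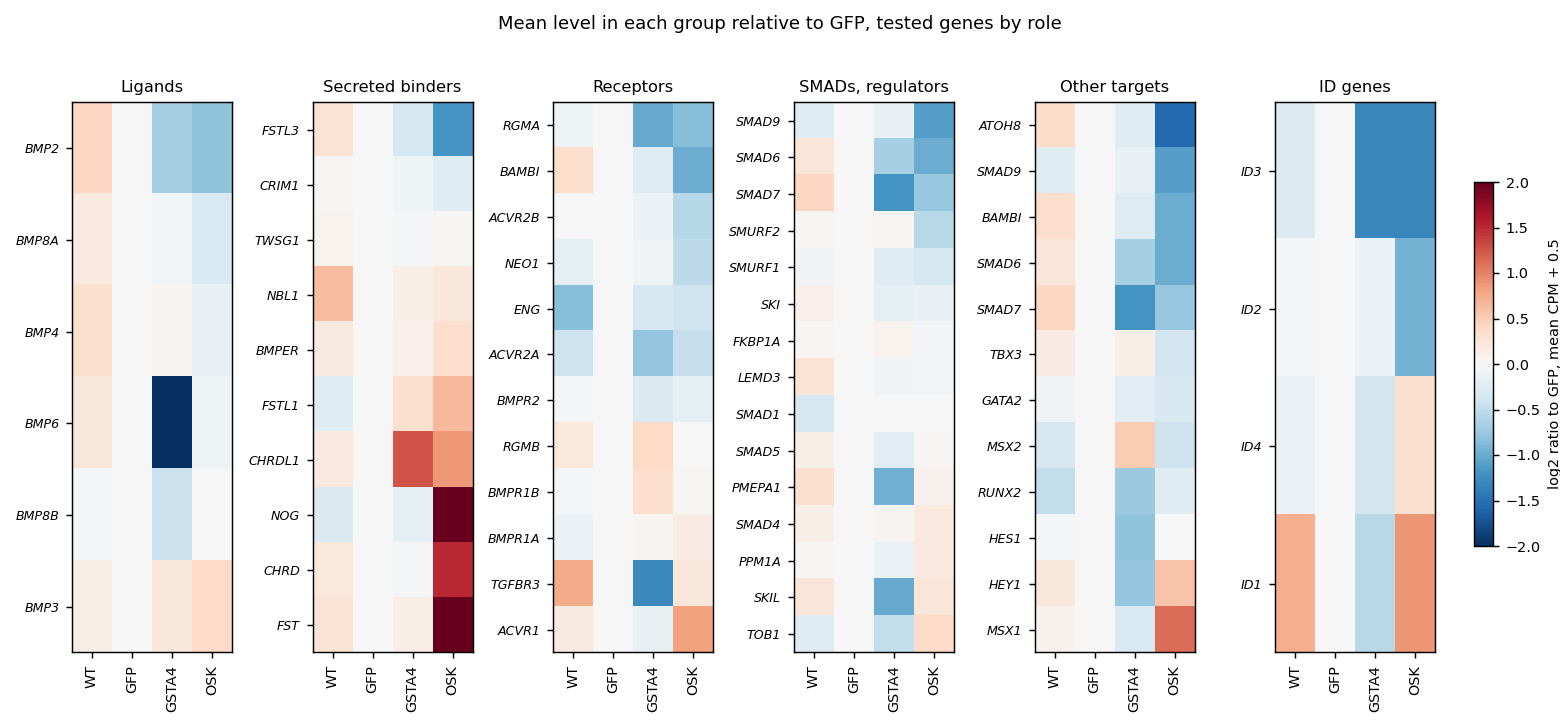
Heat map of the tested pathway genes (rows, 1 panel per role) in the 4 groups (columns). Colour is the log2 ratio of the group mean to the GFP mean, both as CPM plus 0.5, so GFP is 0, and the colour range stops at -2 and 2. FST and NOG are at the top of the range in OSK, BMP6 is at the bottom in GSTA4, and SMAD7, SKIL and PMEPA1 are lowest in GSTA4.

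Of 14 receptors and co-receptors 12 were tested. The shares of all genes called were 29.2% in GSTA4 against GFP, 45.9% in OSK against GFP and 22.2% in GFP against WT. GSTA4 against GFP had 1 higher and 5 lower (list median -0.21), which became 3 in all without GSTA4 replicate 1. TGFBR3, the co-receptor betaglycan, was at -1.30 (SE 0.118, adjusted p 3.91e-08), the type II receptor ACVR2A at -0.81 (SE 0.135, adjusted p 0.000103) and the co-receptor RGMB at 0.41 (SE 0.119, adjusted p 0.0124). RGMB was no longer called without GSTA4 replicate 1 (range over all alternatives 0.00704 to 0.0559). In OSK against GFP 1 was higher and 6 were lower (list median -0.33). The 1 that rose was ACVR1, the type I receptor ALK2, from 43.5 CPM ± 1.22 to 76.6 ± 2.56 (0.81, SE 0.0749, adjusted p 1.71e-08), and the type II receptor ACVR2B fell by 0.59 on the log2 scale (adjusted p 0.000179). GFP against WT had 2 higher and 2, TGFBR3 (-0.74) and BAMBI, lower (list median 0.05), and without WT replicate 2 or GFP replicate 3 the count was 2 in all. ACVR2A was at 0.42 (adjusted p 0.0252), a call that was lost without WT replicate 2 or 3 or any 1 of the GFP libraries (range over all alternatives 0.0101 to 0.0899).

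All 15 SMADs and their regulators were tested, beside the same shares of all genes called (29.2%, 45.9% and 22.2% in the same order of contrasts). In GSTA4 against GFP 0 were higher and 8 lower, with a list median of -0.18 beside 0.01 over all genes, and the count was 5 with no filter on low counts. SMAD7, an inhibitory SMAD that both BMP and TGF-beta induce, had 136, 127 and 129.9 CPM in WT, 99.5, 93.4 and 101 in GFP, 42.5, 40.3 and 44.3 in GSTA4 and 59.9, 57.4 and 55.6 in OSK. Its GSTA4 libraries lay below all 9 others (log2 fold change -1.21, SE 0.0652, adjusted p 1.25e-11). The corepressor SKIL (-1.01) and PMEPA1 (-0.97), which binds receptor SMADs at membranes, are TGF-beta targets as well and were also lower. SMAD6, the inhibitory SMAD more specific to BMP, had 357, 321 and 328 CPM in WT, 293, 269 and 285 in GFP, 199.8, 168 and 163 in GSTA4 and 146, 146 and 133 in OSK. Its log2 fold change against GFP was -1.0 in OSK (SE 0.0737, adjusted p 6.34e-10) and -0.67 in GSTA4 (SE 0.0730, adjusted p 5.04e-07). In OSK against GFP 4 were higher and 6 lower (list median -0.05), with SMAD9, a BMP receptor SMAD, at -1.11 (SE 0.143, adjusted p 2.08e-06) and SMAD7 at -0.77 (adjusted p 3.70e-09), and the 10 calls became 6 without GFP replicate 3 or OSK replicate 2. In GFP against WT 2 were higher and 5 lower (list median -0.11), with SMAD7 at -0.42 (adjusted p 7.18e-05) and PMEPA1 at -0.32 (adjusted p 0.00245). SMAD1 was at 0.35 (adjusted p 0.0327), a call that was lost with no filter, with only the 6 libraries compared and without any 1 of the WT libraries or GFP replicate 2 or 3 (range over all alternatives 0.0259 to 0.135). The 7 calls became 4 with only the 6 libraries compared, 4 without WT replicate 1 or GFP replicate 3 and 3 without GFP replicate 2.

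Of 18 BMP targets other than the ID genes, some of which stand in the lists above, 12 were tested. Over all genes 29.2% were called in GSTA4 against GFP, 45.9% in OSK against GFP and 22.2% in GFP against WT. In GSTA4 against GFP 1 was higher and 5 were lower (list median -0.32), and in OSK against GFP 1 was higher and 5 were lower (list median -0.49). The 6 calls in GSTA4 became 3 without GFP replicate 3. ATOH8, a bHLH factor that BMP signals induce in endothelium and liver, had 122, 121 and 121 CPM in WT, 92.5, 90.3 and 98.5 in GFP, 89.2, 76.2 and 71.9 in GSTA4 and 32.8, 31.5 and 30.4 in OSK, with OSK lowest (log2 fold change against GFP -1.57, SE 0.0772, adjusted p 1.05e-12). MSX1, a homeobox target of BMP4 in limb and tooth, went the other way, from 5.30 CPM ± 0.113 in GFP to 12.1 ± 0.731 in OSK (1.19, SE 0.162, adjusted p 4.18e-06). HES1, which Notch also induces, was at -0.84 (SE 0.141, adjusted p 0.000124) in GSTA4 against GFP. In GFP against WT 0 were higher and 4 lower (list median -0.16), among them ATOH8 (-0.37, adjusted p 0.000942). The feedback inhibitors SMAD6, SMAD7 and BAMBI were all lower in OSK than in GFP, as were ID2 and ID3, while ID1 and ID4 were higher there.

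Of 11 bHLH partners of ID proteins 4 were tested, beside the same shares of all genes called (29.2%, 45.9% and 22.2% in the same order of contrasts). In GSTA4 against GFP 1 was higher and 0 lower (list median 0.01), in OSK against GFP 0 were higher and 2 lower (-0.19), and in GFP against WT 0 were higher and 1 lower (-0.21). TWIST1, a mesenchymal bHLH factor, was higher in GSTA4 than in GFP (0.63, SE 0.126, adjusted p 0.000714). The E proteins TCF4 (-0.94, SE 0.231, adjusted p 0.00212) and TCF3 (-0.35, SE 0.0770, adjusted p 0.000798) were lower in OSK than in GFP. TCF3 was also lower in GFP than in WT (-0.28, adjusted p 0.0113), a call that was lost without GFP replicate 2 (range over all alternatives 0.00251 to 0.0711). Without GSTA4 replicate 1 a second partner was called in GSTA4 against GFP.

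**Figure D4:**
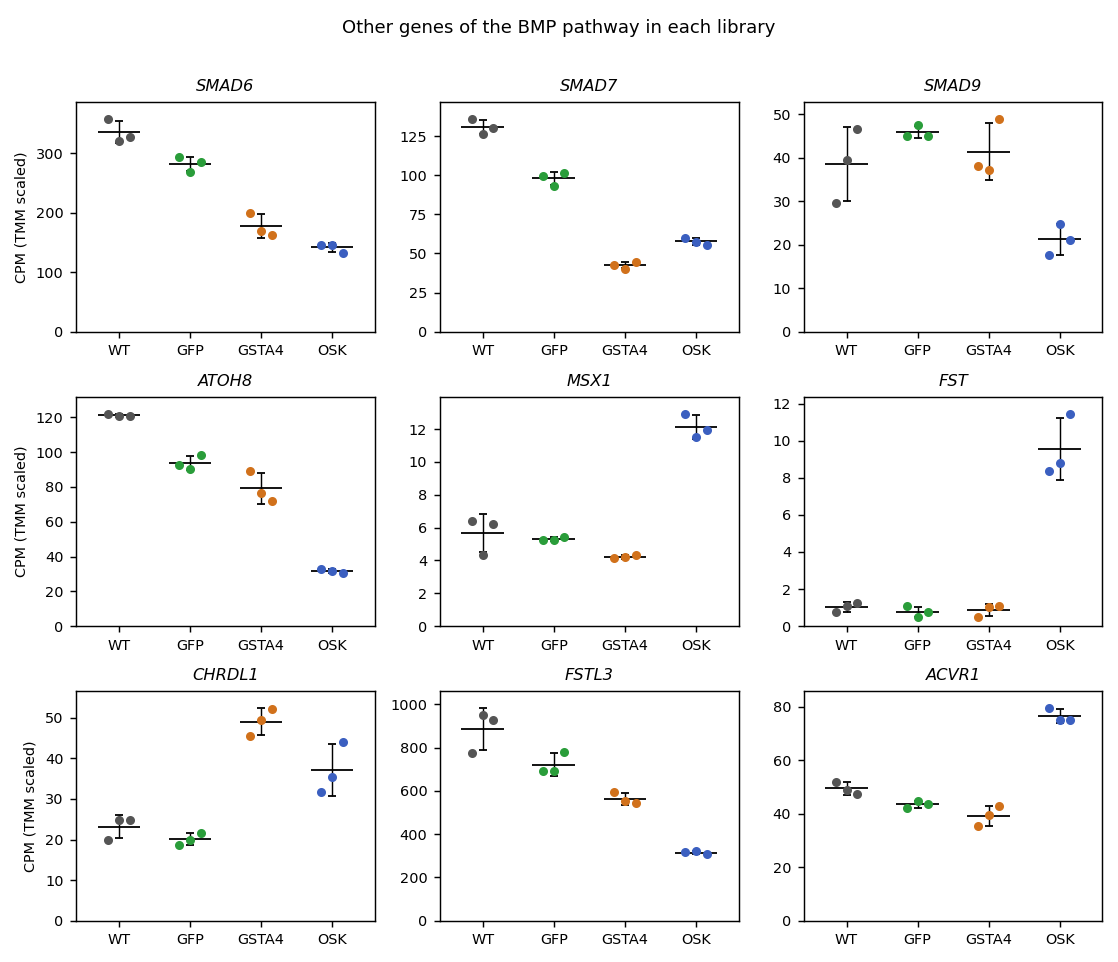
CPM (y axis, from 0) of 9 pathway genes that are not among the 10, in each of the 12 libraries by group (x axis). Points are libraries, lines are group means and bars are SD (n = 3). SMAD6, SMAD9, ATOH8 and FSTL3 are lowest in OSK, SMAD7 is lowest in GSTA4, and FST, MSX1 and ACVR1 are highest in OSK.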

How the data were processed

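Poly(A) RNA of 12 ARPE-19 libraries (WT, GFP, GSTA4 and OSK, 3 each) was deposited by the authors as raw read counts per gene. Per the submitters' processing notes the tools were STAR 2.7.1a and featureCounts 1.6.2, and the builds named include GRCh38. The annotation release and the strand setting are not given in the sources used here. Of 60605 lines, 20014 without a symbol (0.485% to 0.822% of reads) were left out, which left 40591 named genes.

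Counts were tested with edgeR 4.0.16 in R 4.3.3 (glmQLFit and glmQLFTest, TMM scaling, filterByExpr with the groups), in a single fit of all 12 libraries with no covariate and 8 residual degrees of freedom. Two-sided p-values were adjusted over 15179 genes in each contrast by Benjamini-Hochberg, and the threshold was 0.05. A standard error (SE) is the log2 fold change divided by the square root of F. Levels are CPM after TMM scaling, and floors of 3 reads, which leave out the TMM factors, cover counting error only. Likeness is Pearson's r of log2(CPM + 0.5) over the 12 libraries, among tested genes with a mean of at least 1 CPM.

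Members and lists were chosen with earlier results of these data known. Named from each list and contrast were up to 3 called genes with a mean of at least 1 CPM, groups without overlap and the largest change. A gene that the likeness rule names is not reported here. Markers of RPE, fibroblasts, endothelium, leukocytes and pluripotent stem cells were measured in the same way. Promoters came from RefSeq (GRCh38.p14) and exon lengths and overlaps from GENCODE 29 (GRCh38). The alternatives tried were DESeq2 1.42.0, a block for the replicate number, scaling by RLE or by library size alone, a filter of 1 CPM on the mean or none, a fit of only the 6 libraries compared, and each library left out in turn.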

Additional observations from a re-analysis of the deposited data

How the results depend on the processing

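The count of called members kept within 1.5 times of its value in each contrast under every alternative run. With each library left out in turn it ran from 5 to 6 in GSTA4 against GFP, from 7 to 8 in OSK against GFP, from 4 to 5 in GFP against WT, from 6 to 7 in OSK against GSTA4, from 6 to 7 in GSTA4 against WT and from 7 to 9 in OSK against WT. No member changed direction while called. Besides the members named above, BMP4 lost its call in GSTA4 against WT without WT replicate 1 (log2 fold change -0.15, adjusted p 0.0526), and BMP6 lost its call in OSK against WT without WT replicate 2 or 3 or OSK replicate 2 or 3 (-0.24, -0.27, -0.32 and -0.26). BMP4 in OSK against GFP became called with library size alone (-0.23), with only the 6 libraries compared (-0.16) and without WT replicate 1 (-0.16). BMP6 in GFP against WT became called with no filter (-0.24) and without WT replicate 1 (-0.36). The cause of these changes was not tested. With the replicate number as a block, the member counts were as without the block: 6 in GSTA4 against GFP (4733 of all genes, 4439 without the block), 7 in OSK against GFP (7270 and 6962), 5 in GFP against WT (3779 and 3369) and 7 in OSK against GSTA4 (7475 and 7262). The shared numbers were not taken as pairs, since deviations of same-numbered libraries from their group means correlated at -0.0357 to 0.197 (median 0.051) and were not all over 0.1, beside -0.137 to 0.0891 (median -0.0334) for different numbers. WT replicate 1 correlated with GFP, GSTA4 and OSK replicate 1 at 0.184, 0.197 and 0.157, above every pair of different numbers. Depth limits NOG in the 3 groups other than OSK and GREM1 in all.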
